A study of Caenorhabditis elegans with 2 samples.

Results

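Of the 3531 reproducible HIF-1 peaks of L4 larvae of the nematode Caenorhabditis elegans, 426 (12.1%) had their summit inside an intron of a protein-coding gene and away from every annotated gene start. A peak was placed by its summit, the base of highest signal. It was kept when the summit lay in the body of a protein-coding gene but in no exon of one. It also had to lie outside every promoter window, which reached 1000 bp upstream and 200 bp downstream from a protein-coding transcript start. The last condition was a distance of more than 250 bp from any tRNA, snRNA, snoRNA, rRNA or miRNA gene. In all, 832 summits were intronic, of which 283 fell in a promoter window and 123 near such a small RNA gene, and these were set aside. The remaining peaks of the list are called promoter (1923), distal intergenic (808), exonic (90) and small RNA gene peaks (284).

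Chromatin immunoprecipitation and sequencing (ChIP-seq) was carried out on whole worms of strain OR3349, which stably carries hif-1 fused at its C-terminus to GFP and FLAG, with an anti-GFP antibody. Per the labels, sonicated chromatin came from pooled male and female L4 larvae, collected 52 hours after L1 larvae had been synchronized by starvation. The 2 samples were biological replicates of 1 group, so no conditions could be compared. The labels used here give neither the oxygen level nor the copy number of the tagged gene, and whole animals mix all tissues. Peak signal is the authors' value relative to a control alignment, and the depth is unknown, as no read counts were at hand.

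HIF-1 is the hypoxia-inducible factor of the worm, a bHLH-PAS transcription factor that pairs with AHA-1, the homologue of mammalian ARNT. In normal oxygen the prolyl hydroxylase EGL-9 marks it for VHL-1, which sends it for degradation. The pair is known to bind a short core, ACGTG or GCGTG, in hypoxia response elements, and in mammals such elements occur in introns as well as upstream of genes. The core was searched on both strands. CACGTG, the E-box that many bHLH factors bind, reads as ACGTG on both strands and thus counts as 2 matches.

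Sequences of 5 of the strongest peaks with the core, of daf-12, shown for its number of cores, and of the pathway gene egl-9 show how differently the core was placed. Each is the window of 101 bp centred on the summit, on the plus strand of ce11 (WBcel235), with letters from the RefSeq copy of that assembly and each core, read on either strand, in capitals. They lie at chrIV:4026082-4026182 (hlh-30), chrX:4142246-4142346 (ZK470.2), chrX:17631067-17631167 (H18N23.2), chrX:10051793-10051893 (gnrr-3), chrX:16796949-16797049 (aak-2) and chrX:10637630-10637730 (daf-12). The egl-9 windows lie at chrV:10469326-10469426 (intron 2), chrV:10472105-10472205 (intron 4) and chrV:10474178-10474278 (intron 7).
hlh-30 intron 2: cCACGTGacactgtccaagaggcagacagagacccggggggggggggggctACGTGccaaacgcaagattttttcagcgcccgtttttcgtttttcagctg
ZK470.2 intron 4: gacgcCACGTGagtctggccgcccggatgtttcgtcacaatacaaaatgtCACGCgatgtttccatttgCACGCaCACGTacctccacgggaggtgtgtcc
H18N23.2 intron 1: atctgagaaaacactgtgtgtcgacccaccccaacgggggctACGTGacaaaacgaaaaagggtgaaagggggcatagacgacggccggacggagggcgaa
gnrr-3 intron 8: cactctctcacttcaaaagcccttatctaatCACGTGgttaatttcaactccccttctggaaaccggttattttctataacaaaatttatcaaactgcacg
aak-2 intron 1: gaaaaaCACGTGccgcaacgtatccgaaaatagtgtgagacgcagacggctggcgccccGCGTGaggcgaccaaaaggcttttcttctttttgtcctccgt
daf-12 intron 1: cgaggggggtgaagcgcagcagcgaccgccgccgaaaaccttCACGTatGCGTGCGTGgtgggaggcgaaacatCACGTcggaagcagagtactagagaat
egl-9 intron 2: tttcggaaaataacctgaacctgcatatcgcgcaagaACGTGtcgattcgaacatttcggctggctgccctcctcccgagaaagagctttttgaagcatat
egl-9 intron 4: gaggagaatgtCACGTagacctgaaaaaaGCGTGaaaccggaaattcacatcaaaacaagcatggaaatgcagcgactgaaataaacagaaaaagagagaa
egl-9 intron 7: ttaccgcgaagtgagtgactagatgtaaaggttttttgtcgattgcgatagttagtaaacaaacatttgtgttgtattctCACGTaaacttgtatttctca
The window of hlh-30 held an E-box at one end and a further ACGTG near the summit, which counts as 3 matches, and that of ZK470.2 held 5, the most of any member. H18N23.2 had 1 match, gnrr-3 a single E-box, aak-2 an E-box and GCGTG, and daf-12 had 4 matches.

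Other strong members had no core within 50 bp of the summit, and 3 of them are shown with other words in capitals. These are Y62E10A.13 at chrIV:13395321-13395421, epg-9 at chrIV:2602106-2602206 and F42A10.9 at chrIII:6170213-6170313. Capitals mark CTGCGTCTC, read on either strand, in the first and second and GAGAGA in the last.
Y62E10A.13 intron 1: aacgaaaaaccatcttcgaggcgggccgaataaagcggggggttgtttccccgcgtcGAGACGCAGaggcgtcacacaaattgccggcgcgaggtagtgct
epg-9 intron 2: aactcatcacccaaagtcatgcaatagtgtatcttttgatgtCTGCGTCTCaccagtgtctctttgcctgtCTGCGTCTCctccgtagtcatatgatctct
F42A10.9 intron 3: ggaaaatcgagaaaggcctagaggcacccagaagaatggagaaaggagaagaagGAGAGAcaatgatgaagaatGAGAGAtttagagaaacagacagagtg

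The strongest intronic peak lay in intron 1 of Y62E10A.13, named a phosphoserine phosphatase gene in RefSeq (chrIV:13394707-13395727). Its signal of 3850 ranked 3 in the whole list, and its signal was 1425 in replicate 1 and 2439 in replicate 2, rank 3 in both. The summit lay 3682 bp downstream of the first annotated start of the gene. No core was found within 50 bp, but the whole region held 5, the nearest centred 61 bp from the summit.

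The peak in intron 2 of hlh-30 (chrIV:4025800-4026477) followed with a signal of 2837, and 992 and 1860 in replicates 1 and 2. HLH-30 is the orthologue of TFEB, a regulator of autophagy and lysosome genes. Intron 4 of ZK470.2 held a peak of signal 2694 (920 and 1827 in the replicates), whose region (chrX:4141918-4143753) also held summits of 1419 (556 and 900) and 1304 (583 and 689). Intron 1 of H18N23.2, a gene for a regulatory subunit of protein phosphatase 1 per RefSeq, held one of 2443 (chrX:17630790-17631447, 800 and 1645 in the replicates). These 4 peaks stood among the 10 highest of the genome in both replicates.

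After these came gnrr-3, which encodes a receptor of the gonadotropin-releasing hormone receptor family, with a signal of 1109 (362 and 744 in the replicates, chrX:10051591-10052198). Its summit lay in the last intron, 2383 bp from the start, and the nearest other peak was 32366 bp away. The peak of pygl-1, the glycogen phosphorylase gene, had 950 (365 and 586), and that of aak-2, a catalytic subunit of the energy sensor AMPK, had 867 (323 and 535). Introns of ppfr-1, a regulatory subunit of protein phosphatase 4, held 912 (397 and 507) and 773 (372 and 407). A second H18N23.2 peak had 916 (301 and 608). The forkhead gene fkh-7 had 831 (318 and 515) and H28G03.2 had 736 (292 and 454). In each of these, both replicates ranked the peak among their 120 highest regions.

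The list of the 20 strongest closed with daf-5, the Ski homologue of the dauer TGF-beta pathway, at 708 (252 and 465) and 605 (253 and 355). The nuclear receptor gene nhr-19 had 596 (230 and 372), and F42A10.9 had 558 (211 and 344). The anion exchanger gene abts-4 had 558 (196 and 369) and epg-9, the Atg101 homologue needed for autophagy, had 514 (187 and 328). All 20 were found in both replicates and 14 had the core.

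**Figure D1:**
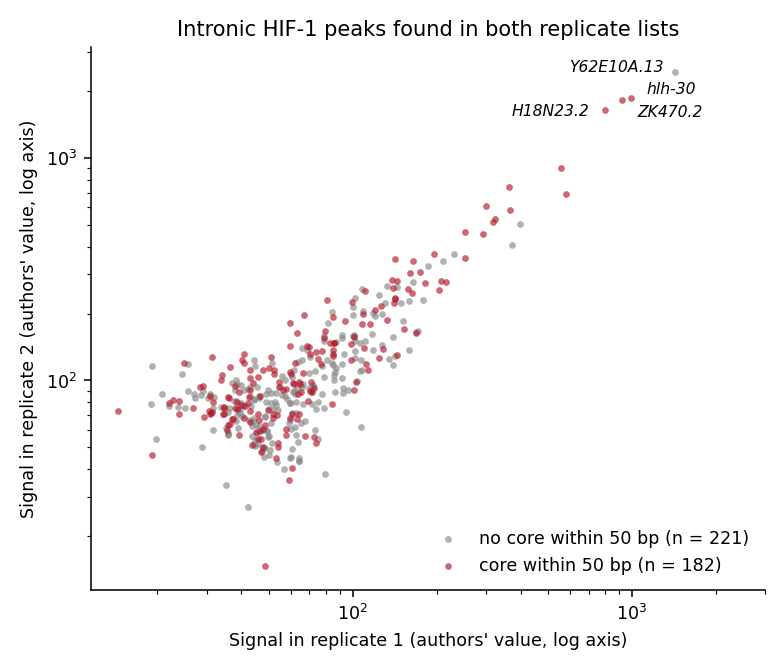
Signal of the 403 intronic peaks found in both replicate lists, replicate 1 on the x axis and replicate 2 on the y axis, both log axes in the authors' units, which are not scaled between lists. Points are peaks, coloured by whether ACGTG or GCGTG lay within 50 bp of the summit, and the 4 named peaks stand apart at the upper right.

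Most intronic peaks were far weaker than these. Their signal ran from 95.5 to 3850 with a median of 141 and quartiles of 111 and 227, compared with a median of 171 for promoter, 149 for distal intergenic and 158 for all peaks. Only 7 exceeded 1000 and 21 exceeded 500. They supplied 4 of the 20 and 14 of the 100 highest peaks of the whole list. The lowest value, 95.5, was close to the lowest of the IDR list (95.1), so weaker candidate regions were not members.

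A summit of each replicate's own candidate list lay within 100 bp for 403 of the 426 (94.6%, 95% exact interval 92.0 to 96.5), against 96.1% of all IDR peaks. Of the other members, 15 were missing from replicate 1, 8 from replicate 2 and 0 from both. The IDR list was derived from these same candidate lists, which also hold background regions, so a high share was built in. A match could be weak, and that of an aakg-1 peak of signal 141 ranked 20344 in replicate 2 (14.7). Unless stated otherwise, found in both replicates has this meaning. Among promoter peaks the share found in both was 96.6%, and the difference did not pass the threshold (odds ratio 0.623, Fisher's exact test, two-sided, p = 0.0670). It did pass under 5 alternatives of 10, most clearly when only the 3531 strongest regions of each replicate were used (odds ratio 0.573, exact p = 7.80e-07). By that stricter criterion 257 members (60.3%) were in both replicates, compared with 69.8% of all IDR peaks. That criterion is itself a cut on signal, and median signal was lower in introns than in promoter windows. Whether signal accounts for the difference was not tested. Among the IDR peaks above the median signal the odds ratio by the 100 bp criterion was 0.965 (exact p = 1.00). Of the 142 strongest members 98.6% were found in both, which left little room for a difference there.

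Across the 403 shared peaks the replicate signals ranged from 14.5 to 1425 (median 60.5) in replicate 1 and from 14.7 to 2439 (median 91.0) in replicate 2. Their Spearman correlation was 0.674 and their Pearson correlation on the log2 scale 0.806. Both describe peaks of 1 pair of libraries that the IDR list was itself derived from. The plot of the replicates shows a narrow band above about 100 and a wide cloud below it.

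Where in a gene the members lay was fixed in part by the rule, so these values are given without a test. The rule admitted 27.0 Mb of intron sequence, which held 15.8 members per Mb, compared with 74.0 promoter peaks per Mb of promoter window, 32.5 distal intergenic peaks per Mb and 4.16 exonic peaks per Mb. Of the 425 members that could be placed in an intron of a coding transcript, 161 lay in a first intron (37.9%, 95% exact interval 33.3 to 42.7). First introns made up 21.2% of the admitted intron sequence. The second intron held 59 members, and later introns 205 (48.2% of members and 62.9% of the sequence). The remaining member lay within the span of F28F8.7 but in no intron of a coding transcript (signal 109).

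Density rose with the length of the intron. Introns of up to 500 bp held 4.50 members per Mb of admitted sequence (35 members), those of 2000 to 5000 bp held 30.7 (128 members) and those above 5000 bp held 46.1 (179 members). The median intron with a member was 4239 bp long, with a range of 50 to 21230 bp. The core share did not follow this order. It was 60.0% in introns of up to 500 bp, 43.9% from 500 to 1000 bp and 57.1% from 1000 to 2000 bp. From 2000 to 5000 bp it was 40.6%, and above 5000 bp 43.6%. The median signal was 145 in first, 137 in second and 137 in later introns.

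**Figure D2:**
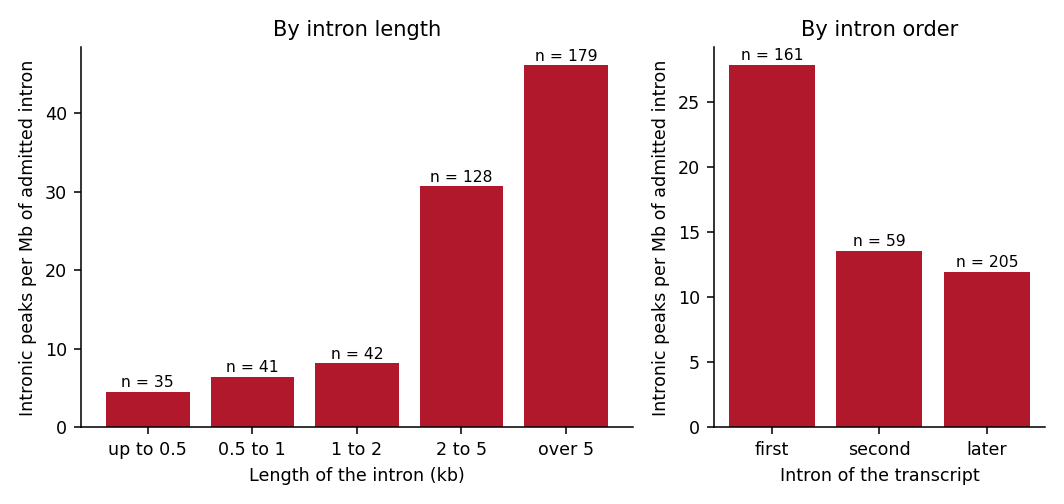
Intronic peaks per Mb of admitted intron sequence (y axes, from 0), by the length of the intron in kb on the left and by the order of the intron in its transcript on the right, with the number of peaks above each bar. Density rises from 4.50 to 46.1 per Mb over the 5 length classes, and first introns hold 161 peaks.

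Relative to the first annotated start of the host gene, the summits lay a median of 3796 bp downstream, with quartiles of 1911 and 8171 bp and a maximum of 40177 bp. For 79 of them a start of the host gene lay within 1000 bp upstream. A further start of the same gene lay somewhere downstream of 264 summits, and within 2000 bp of 91. The nearest start of any protein-coding gene belonged to a gene other than the host for 54 members. These distances rest on annotated transcript starts, since initiation was not measured in these larvae.

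The 426 peaks lay in 271 host genes, 1.57% of the 17302 protein-coding genes with admitted intron sequence. In 5 cases the summit lay in the introns of a pair of overlapping genes and was given to the shorter one, and counting both would make 275 hosts. A single peak was present in 198 hosts, while 73 hosts held more than 1 and together 228 of the peaks, and 37 hosts held 3 or more and together 156. These are counts of summits, not of separate sites, and some summits lay close together. Those of aak-2 were 200 bp apart, and ppfr-1 held pairs 201, 202 and 205 bp apart. With neighbours within 500 bp thinned, 400 of the 426 members remained. ZK470.2 and ppfr-1 had 8 each. The hosts vhp-1, which encodes a MAP kinase phosphatase, hlh-30, H18N23.2, daf-5 and fkh-7 had 6 each. Next, with 5 each, came abts-4, pkg-2, a cGMP-dependent protein kinase gene, scd-1, daf-16, pqn-41 and aakg-1, a gene for a gamma subunit of AMPK.

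Strength and number went apart in some of these hosts. The 8 peaks of ZK470.2 ran from 104 to 2694 over 7.74 kb, 5 of them with the core and 7 found in both replicates. The 8 of ppfr-1 ran from 118 to 912 over 10.7 kb, all found in both, with the core at 3. The 6 of hlh-30 ran from 98.6 to 2837 over 9.44 kb, all found in both, with the core at 2. By contrast the 6 of vhp-1 ran only from 102 to 229 over 13.3 kb, with 4 found in both and the core at 1. In abts-4 the 5 peaks lay within 2.40 kb near the end of the gene, with signals of 130 to 558 and the core at 4.

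**Figure D3:**
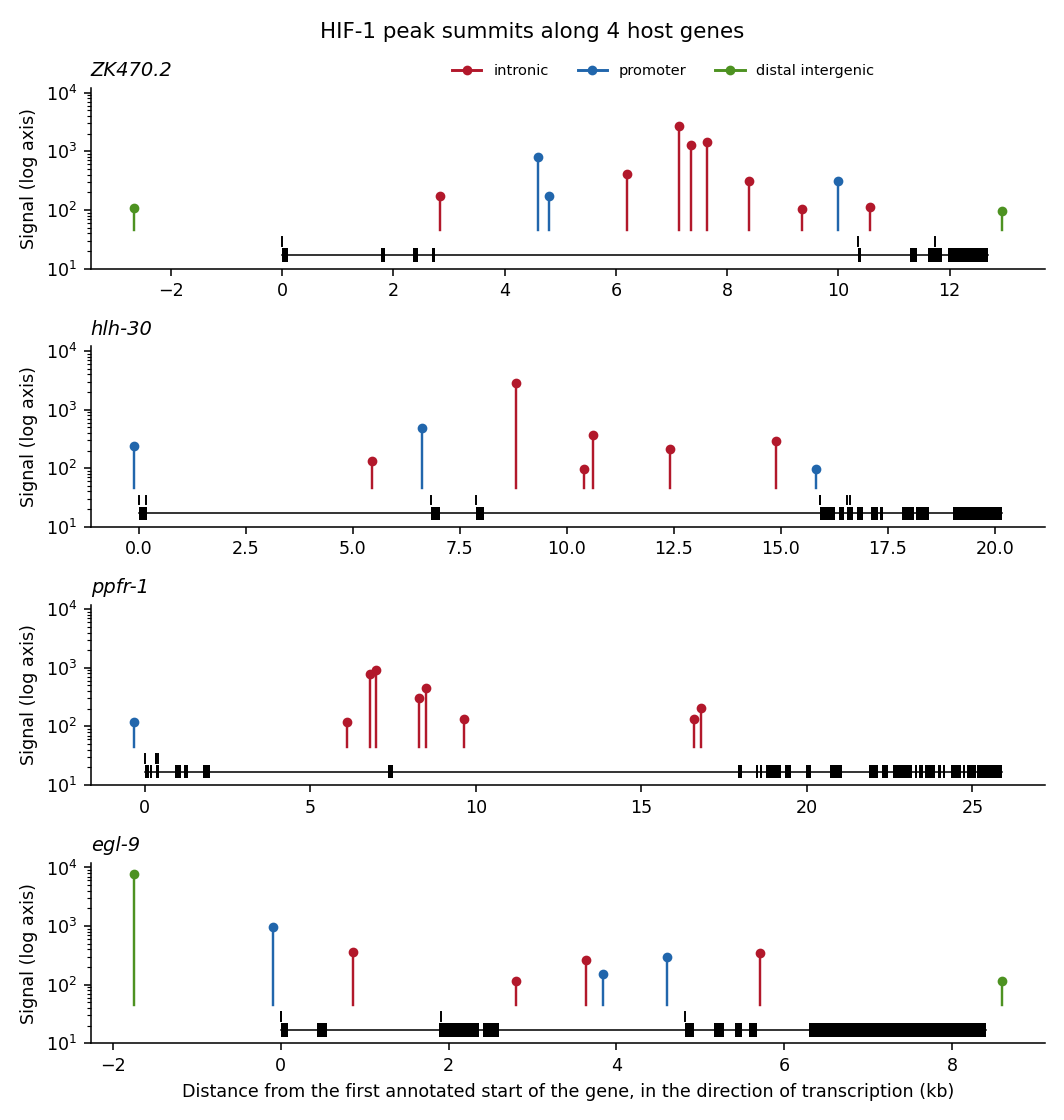
Peak summits along ZK470.2, hlh-30, ppfr-1 and egl-9. The x axis is the distance in kb from the first annotated start in the direction of transcription, the y axis is signal on a log axis, black boxes are exons, short ticks are annotated starts of the gene and colour is the class of the peak, where a promoter window may belong to another gene. The 8 red intronic summits of ZK470.2 and the 8 of ppfr-1 lie between exons, and in egl-9 the 4 intronic summits stand below the upstream summit and the one at the first start.

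A host gene often had a peak in its own promoter window as well. This was so for 103 of the 271 hosts (38.0%), against 1954 of the 17302 genes with admitted intron sequence (11.3%). Hosts had more admitted intron than the other 17031 genes, with a median of 5.48 kb against 0.674 kb. Within genes of 5 to 10 kb of admitted intron, 48.1% of hosts and 11.5% of the others had such a peak. Above 10 kb the shares were 39.4% and 12.3%. The gap was smaller in shorter classes. From 2 to 5 kb it was 21 of 70 hosts and 13.2% of the others, and from 1 to 2 kb 34.9% and 9.90%. Up to 1 kb it was 2 of 11 hosts and 10.5%. Promoter windows were taken from every annotated start, so such a peak could lie inside the gene. The number of starts was not matched between hosts and others.

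Among 11 components of the HIF-1 pathway, of which 10 had admitted introns, egl-9 was the only host, and over all genes with admitted introns 1.57% were hosts. Its 4 intronic peaks had signals of 364 (141 and 224 in replicates 1 and 2), 353 (111 and 252), 263 (66.9 and 198) and 115 (31.6 and 80.3). Each was found in both replicates and held the core within 50 bp of its summit, as the sequences above show for 3 of them. The gene has 2.81 kb of admitted intron, so this came to 1.43 peaks per kb. Of the 15 genes reported to respond to hypoxia through HIF-1, 2 were hosts (13.3%), F22B5.4 and again egl-9, so the lists are not separate. F22B5.4 had 154 (63.4 and 92.4) and 140 (64.0 and 87.2). The summit of 154 had no core and lay 221 bp downstream of the annotated start, just outside the promoter window. No member lay within 20000 bp of hif-1, the gene that the transgene copies.

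Regulators of stress and nutrient responses included 9 hosts among 46 genes with admitted introns (19.6%), with 22 peaks, a median signal of 149 and 115 peaks per Mb, beside 15.8 per Mb and a median of 141 over all genes. Besides hlh-30 and aak-2 they were skn-1, the Nrf orthologue of the oxidative stress response (323, 117 and 101, all with the core, and a further peak of 130 with the core that was given to clec-178, a shorter gene overlapping skn-1), and let-363, the TOR kinase gene (230). The insulin pathway was present with daf-2, the receptor (141 and 133), pdk-1, a kinase acting below it (157), and daf-16, the FOXO factor at its end (182, 166, 106, 100 and 97.8). The bZIP genes atf-7, of the p38 immune pathway (157), and crh-1, the CREB homologue (113), closed the list. The core lay at 8 of the 22 summits. With the shared peak counted for skn-1, the list had 23 peaks, a median of 141 and 120 per Mb. In daf-16 the core lay at 1 of 5, and in let-363, pdk-1, atf-7 and crh-1 at none. This list, like the others, was chosen with earlier results of these data known, so its share of hosts is a description only. The 46 genes had 0.191 Mb of admitted intron, and hosts were more frequent among genes with more of it. Of all genes with more than 10 kb, 18.4% were hosts, at 26.2 peaks per Mb.

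In the peaks given to skn-1, the signals in the replicates were 169 and 163 at the strongest and 26.9 and 75.1 at the weakest of its peaks, and the peak of 117 was found only in replicate 2, at 63.6. In daf-16 the strongest had 63.5 and 121 and the next 107 and 61.8, so the replicates ordered them differently. The 2 peaks of daf-2 had 46.8 and 84.8 and 36.9 and 97.4. All but the skn-1 peak of 117 were found in both replicates.

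Lists of other functions held fewer members than the stress and nutrient list, and over all genes with admitted introns 1.57% were hosts. Glycolysis and gluconeogenesis had 1 host of 27, the hexokinase gene hxk-1 (148, with the core), and the 48 homeobox genes had 0. Ion channel and synapse genes had 4 hosts of 51, namely cca-1, a T-type calcium channel (162 and 137), tax-6, the calcineurin catalytic subunit (154), unc-43, the CaMKII kinase (122 and 111), and unc-104, a kinesin (106). Muscle, adhesion and cytoskeleton genes had 3 of 54, zyx-1, which encodes zyxin (228 and 129), lev-11, tropomyosin (137), and unc-22, twitchin (125). Chromatin genes had 1 of 47, the histone deacetylase gene hda-4 (103). Signalling receptors and kinases had 4 of 58, namely egl-4, a cGMP-dependent kinase (161 and 110), lin-17, a Frizzled receptor (135), kin-1, the catalytic subunit of protein kinase A (129 and 97.5), and pkc-1 (98.6 and 96.5).

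Per Mb of admitted intron these lists held 24.2 (glycolysis), 16.7 (ion channels), 13.7 (muscle), 9.74 (chromatin) and 22.0 peaks (signalling), beside the 15.8 of all genes. Genes with the nuclear hormone receptor prefix nhr had 6 hosts of 264 and 27.9 peaks per Mb, led by nhr-19 (596), nhr-3 (440), nhr-40 (247) and nhr-21 (235). That list leaves out receptors with other names such as daf-12, and it has 7 hosts if nhr-27, which shares a peak of 111 with rgs-2, is counted. In the same way the muscle list has 4 hosts with unc-73, which shares a peak of 96.2 with F55C7.2, and then 17.1 peaks per Mb. The 25 bHLH genes had 1 host, hlh-30 itself, whose 6 peaks came to 172 per Mb. A host is a position only, since expression of these genes was not measured.

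The core lay within 50 bp of 193 of the 426 summits (45.3%, 95% exact interval 40.5 to 50.2). Windows of equal width whose centres lay 500 bp left and 500 bp right of the summit held it at 13.4% and 13.6% of the members. The core was at the summit but not in the left window in 160 cases and the reverse in 24, and against the right window in 167 and 32. The smaller of the gains was 31.7 percentage points (exact McNemar test, two-sided, larger p of both flanks, 3.06e-23, with peaks treated as independent). All windows of 101 bp tiled over the admitted introns held the core in 11.3% of cases (267124 windows).

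Base composition moved with this difference, with a median GC content of 45.5% at the summits and 34.2% in the flanks. Among the 45745 intron windows with a GC content of 40.6% to 51.5%, the range between the quartiles of the members, 22.0% held the core. The share of the members was above both values, and the part of composition in the rest was not tested.

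Measured to its centre, the nearest core lay a median of 19.0 bp from the summit in the 193 members with one, within 10 bp in 57 and within 25 bp in 124. More than 1 match was found at 59 summits (13.8%) and 3 or more at 14. The share with more than 1 was near that of all IDR peaks (12.5%) and of promoter and distal intergenic peaks (12.9% each). As 1 E-box counts as 2 matches, some of these summits, such as that of gnrr-3, had a single site. After ZK470.2, daf-12, a nuclear receptor gene of the dauer pathway, had the most, with 4 at a peak of signal 411 (158 and 257 in the replicates). A peak of fln-1, the filamin gene, had 3 at 325 (99.3 and 226). Over the whole region called by the authors rather than the summit window, 318 members (74.6%) held a core. These regions had a median width of 416 bp, and wider windows hold a core more often by width alone. No background share at that width was computed, so this value is not a measure of enrichment. Relative to the direction of the host gene, 126 matches read along it and 143 against it.

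**Figure D4:**
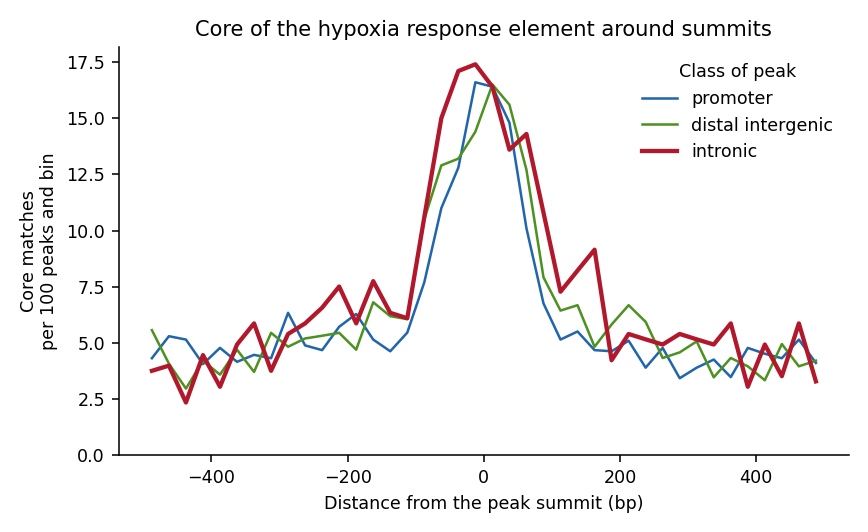
Matches to ACGTG or GCGTG on either strand per 100 peaks in bins of 25 bp (y axis, from 0) against distance from the summit in bp (x axis), for intronic, promoter and distal intergenic peaks. All 3 lines rise around the summit.

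The share with the core was close to that of the whole list (42.1%) and of the other large classes. It was 43.3% at promoter peaks, a difference of 2.04 percentage points with a 95% Newcombe interval of -3.13 to 7.27 (odds ratio 1.09, Fisher's exact test, adjusted p = 0.772). At distal intergenic peaks it was 41.0%, with an interval of the difference from -1.45 to 10.1 points (odds ratio 1.19, adjusted exact p = 0.516). Intronic summits set aside because they fell in a promoter window had the core in 44.9% and a median signal of 153.

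Of 12 motifs, 5 (41.7%) were more frequent at the intronic summits than in both flanks. These were the core, its forms ACGTG and GCGTG, the E-box and GAGAGA. All but GAGAGA overlap, as the E-box holds ACGTG, so they are not separate findings. Of the 24 comparisons with promoter or distal intergenic peaks, 3 (12.5%) passed an adjusted p of 0.05 by Fisher's exact test, all of them against promoter peaks.

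One form of the core was more frequent at intronic than at promoter peaks. ACGTG lay at 131 intronic summits (30.8%) and at 23.4% of promoter summits, 7.35 percentage points more with an interval of 2.73 to 12.2 (odds ratio 1.45, Fisher's exact test, adjusted p = 0.0286). Distal intergenic summits had it at 28.3%, and intronic peaks did not differ from these beyond the threshold (odds ratio 1.12, adjusted exact p = 0.724, interval of the difference -2.87 to 7.85 points). GCGTG lay at 19.2% and 23.9% (odds ratio 0.760, adjusted exact p = 0.251). Counted by match, ACGTG made up 64.7% of the 269 matches at intronic summits and 52.7% of the 1147 at promoter summits. In the flanks of the intronic peaks it was 66.0% of 150 matches, and in all intron windows 62.2%. The E-box CACGTG was present at 29 members (6.81%, flanks 2.58% and 1.64%, adjusted exact p over the flanks 0.0122) and at 5.15% of promoter peaks.

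TGATAA, a sequence that GATA factors such as those of the worm intestine bind, lay at 12.7% of intronic and 7.90% of promoter summits (odds ratio 1.69, Fisher's exact test, adjusted p = 0.0286). Its share in the flanks of the members was 7.75% and 10.3%, and the summits did not exceed both (adjusted exact p = 0.528). In all intron windows it was 8.64% and at distal intergenic summits 11.6% (odds ratio 1.10, adjusted exact p = 0.931). The share at promoter summits was below that of their own flanks (9.52% and 8.74%) and of all promoter sequence in such windows (10.2%). The difference between the classes is thus no excess over the flanks of the intronic peaks. GAGAGA, a repeat bound by GAGA factors in flies, lay at 126 intronic summits (29.6%), 23.2% of promoter summits (odds ratio 1.39, adjusted exact p = 0.0486) and 30.8% of distal intergenic summits. Its flank shares were 5.63% and 4.69% (exact McNemar test, adjusted p = 8.40e-21), and it lay in 3.99% of all intron windows and 7.35% of those with a GC content like the members. The calls of ACGTG, of the GATA word and of the GA repeat against promoter peaks were lost when either replicate was used alone, with adjusted exact p of 0.0567, 0.140 and 0.0829 without replicate 1 and 0.0990 each without replicate 2. Over 10 alternatives, chosen for these words after the data were seen, the adjusted exact p ran from 8.10e-04 to 0.478 for ACGTG (6 passed), from 0.00280 to 0.574 for the GATA word (5 passed) and from 0.00246 to 1.00 for the GA repeat (4 passed).

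The other motifs were no more frequent at the summits than in both flanks by the adjusted test. They were AGATAA (5.87%), CACAG, an accessory sequence of some mammalian hypoxia response elements (17.4%), the FOXO site GTAAACA (2.11%), the SKN-1 core ATGTCAT or TTGTCAT (3.29%), TGACTCA or TGAGTCA, bound by AP-1 (1.17%), and the cAMP response element TGACGTCA (1.17%).

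**Figure D5:**
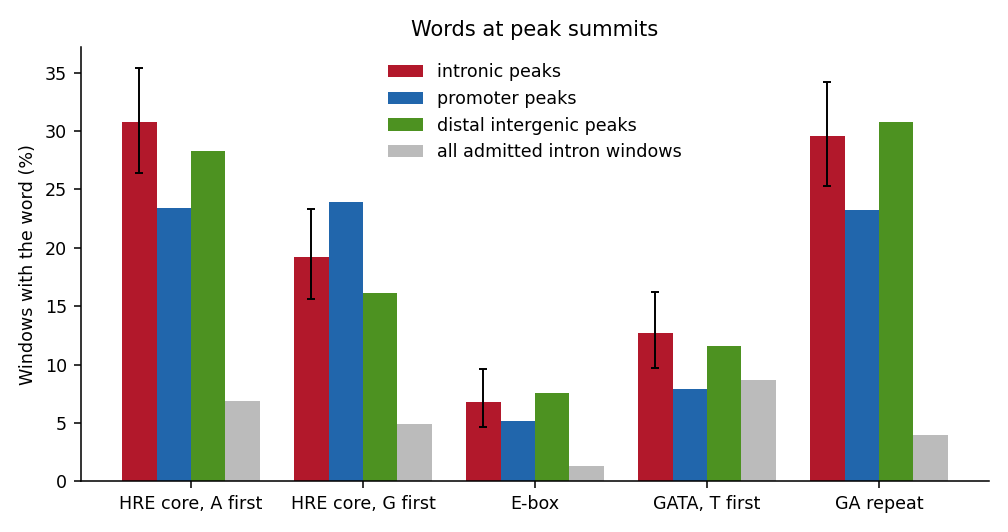
Share of windows of 101 bp with a word (y axis, in percent, from 0) for the ACGTG and GCGTG forms of the core of the hypoxia response element (HRE), the E-box, the GATA word TGATAA and the GA repeat, at intronic, promoter and distal intergenic summits and in all admitted intron windows. Error bars are 95% exact intervals of the intronic peaks. The A form (30.8% against 23.4%) and the GA repeat (29.6% against 23.2%) are higher at intronic than at promoter summits. Distal intergenic summits have 28.3% and 30.8%.

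An open search of all 2080 words of 6 letters, each merged with its reverse complement, gave 134 words (6.44%) that were more frequent at the summits than in both flanks and 120 that were less frequent (exact McNemar test, adjusted over all words). The 10 smallest adjusted p belonged to 3 words of higher and 7 of lower share. Higher were GAGAGA, its shifted form AGAGAG (22.8% at the summits, 3.52% and 3.29% in the flanks) and ACGCAG (14.3%, 0.939% and 1.41%), with adjusted exact p from 1.46e-18 to 3.11e-10. Lower were AT-rich words. AAAATT lay at 11.5% of summits and in 44.4% and 43.7% of the flanks, and AAAAAT at 22.5%, 54.5% and 52.8%. TTAAAA followed with 5.40% at the summits, AAATTA with 4.69%, TAAAAA with 9.62%, TCAAAA with 11.0% and AAATTT with 6.81%. Of the flank windows 77.0% were centred in admitted introns, and 121 of the 134 higher words were at least 3 times as frequent at the summits as in all intron windows.

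Of the 16 words that hold the core, 9 were among the higher ones. One of them, CACGTA, the reverse complement of TACGTG, lay at 59 summits (13.8%), in 2.11% and 1.88% of the flanks, 1.64% of intron windows and 7.18% of promoter peaks. Other words chosen after their values were seen were AGAGAC (19.7%), CACACA (19.5%) and CGTCTC (15.3%).

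ACGCAG and CGTCTC overlap in CTGCGTCTC, the word in capitals in the Y62E10A.13 and epg-9 windows, which was also chosen after its values were seen and has no test. It lay at 31 intronic summits (7.28%), in 1 left and 1 right flank (0.235% each) and in 0.402% of all intron windows. In windows with a GC content like the members its share was 1.41%. Promoter peaks had it at 8.68%, distal intergenic peaks at 8.66% and all IDR peaks at 7.76%, so its share in introns was near that of the list.

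The 233 members without a core within 50 bp were weaker by median (133 against 154) but included the strongest, Y62E10A.13. Of them 94.8% were found in both replicates, beside 94.3% of those with the core. In them 42 words of 6 letters were more frequent than in both flanks by the exact McNemar test, led by GAGAGA (34.3% against 9.01% and 3.86%, adjusted p = 8.20e-09), with ACGCAG at 15.0%. CTGCGTCTC lay at 20 of them (8.58%).

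Within the members the core went with signal only loosely. It lay at 53.5% of the 142 strongest, 40.1% of the 142 in the middle and 42.3% of the 142 weakest, and the strongest and weakest did not differ beyond the threshold (odds ratio 1.57, Fisher's exact test, two-sided, p = 0.0746). The difference passed in 4 alternatives, among them without replicate 2 (odds ratio 2.08, exact p = 0.00563). By number of matches the median signal was 133 with 0, 153 with 1, 145 with 2 and 258 with 3 (12 members). The strongest were found in both replicates in 98.6% of cases and the weakest in 88.0%.

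The X chromosome held 97 members (22.8%) on 16.8% of the admitted intron sequence, 21.4 per Mb, with a median signal of 162 and the core at 54.6%. Chromosome II held 76 (20.3 per Mb), III 75 (16.9), IV 70 (15.4), I 57 (11.5) and V 51 (10.7). The core share ran from 36.0% on III to 54.6% on X. Of the 20 strongest members 9 lay on X, in ZK470.2, H18N23.2, gnrr-3, aak-2, H28G03.2 and abts-4.

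The nearest other IDR summit lay a median of 1989 bp away. It was within 1000 bp for 107 members, and was another intronic member for 85 and a promoter peak for 19 of these. At the other end, 79 members had no other summit within 10000 bp. The authors' intervals were shared with another summit in 25 cases. Besides its protein-coding host, 38 summits lay inside a gene of another type, 28 of them in genes annotated as ncRNA and 4 in lincRNA genes.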

How the data were processed

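HIF-1-GFP ChIP-seq peaks of 2 replicates of whole L4 larvae were used. The authors deposited lists of regions per replicate, pooled, and after the irreproducible discovery rate (IDR) procedure, each called against a control alignment per the file lists that come with the samples. For the aligner and the caller, names are not given in the sources at hand, and the read depth is unknown. The deposited signal is the authors' own value per region and was used only within a list. The deposited −log10 q-value was 3.96 for every IDR peak and was not used further. The ce11 lists were used with Ensembl release 115 genes and RefSeq WBcel235 letters.

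A peak that met several definitions counted first as small RNA gene, then promoter, exonic, intronic and distal intergenic. Windows were 101 bp, with flanks 500 bp away. The flanks were compared by exact McNemar tests (larger p of both) and classes by two-sided Fisher tests, adjusted (Benjamini-Hochberg) over 24 motif comparisons or 2080 words and a threshold of 0.05. Intervals are exact Clopper-Pearson at 95%, and Newcombe intervals for differences of shares, covering counting error over peaks only. The tests treat peaks as independent, which neighbours are not. Named were the 20 strongest peaks, the 10 hosts with the most peaks (with ties), the 5 peaks with the most cores, hosts on the pathway, hypoxia and stress lists, up to 4 per other list, and the 10 words with the smallest adjusted p. The members, lists and motifs were chosen with earlier results of these data known. Alternatives used the stronger peaks, single replicates and other windows, distances, exons and word lengths. Code was tested on simulated data (python 3.11.15, scipy 1.17.1, statsmodels 0.14.6, pandas 2.3.3).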

Additional observations from a re-analysis of the deposited data

How the results depend on the processing

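Over 16 settings, 55 of 82 recomputed values with a test kept their direction and side of the threshold, among them all 12 of the core against the flanks. Of 30 counts and shares without a test, 19 stayed within 1.5 times the reported count or within the interval of the reported share. No paired analysis was possible because there is only 1 group. With the IDR list limited to its peaks above the median signal, there were 178 members, a core share of 52.2% and 22 called words. With single replicates the members ran from 416 to 419, the core share from 38.5% to 47.3%, the gain over the flanks from 23.6 to 33.7 points, and the called words from 98 to 135. The core odds ratio ran from 0.921 to 1.15 against promoter peaks and from 0.993 to 1.20 against distal peaks, turning below 1 without replicate 2. That of strong against weak members ran from 1.50 to 2.08. The odds ratio for being found in both lists ran from 0.709 to 0.767. Here the peaks of 1 replicate were still matched to the lists of both, so this is not the measure reported above. A core lying wholly within 25 bp gave a share of 26.5% and within 100 bp 67.4%, the latter above promoter peaks (odds ratio 1.43, adjusted exact p = 0.0118). The odds ratio of strong against weak members also passed with a promoter window of 500 bp (1.72), exons of every biotype (1.70) and a core within 25 bp (1.81). The odds ratio of being found in both lists passed with promoter windows of 500 bp (0.534) and 2000 bp (0.579), with neighbours within 500 bp thinned (0.477), with summits within 50 bp (0.623, exact p = 5.34e-04) and with the strongest regions only (0.573). Called words numbered 74 with a promoter window of 2000 bp, 84 with flanks at 300 bp, 66 with flanks at 1000 bp, 41 for 7 letters and, chosen after seeing the data, 42 in members without the core. The causes were not tested. The unknown depth sets a limit that could not be measured, and weak peaks were the less often shared ones.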
